A study of Mus musculus with 52 samples.

Results

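The unfolded protein response and the integrated stress response were followed through liver regeneration in 35 listed genes: chaperones, folding enzymes, degradation factors, stress sensors and their targets. A listed gene was read by the probe set that was annotated to that gene alone and had the highest mean over all arrays. All 35 genes had such a probe set, of 18194 genes read in this way. Liver RNA came from C57Bl6/N mice labelled male and given as 8 to 12 weeks old, and was hybridized to 52 Affymetrix mouse expression arrays. Untreated mice gave 5 control arrays. The other 47 arrays came after partial hepatectomy, the surgical removal of part of the liver. Of these, 11 were taken at 24 hours, 3 each at 1 hour and 3 months, 2 at 2 weeks, and 4 at every other time, which were 6, 12 and 48 hours, 3 and 4 days, 1 week and 4 weeks. There was no sham-operated group among the samples, so the effects of surgery and of tissue loss cannot be told apart. Whether each array stands for its own mouse is not stated, so a p-value measures only the spread between these samples, which may be technical.

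The endoplasmic reticulum (ER) is where secreted proteins are threaded through the Sec61 channel, folded by chaperones and disulfide isomerases, and passed to the Golgi. When unfolded protein builds up there, membrane sensors act: IRE1 (gene Ern1) splices the mRNA of the transcription factor Xbp1, ATF6 is cut to release a transcription factor, and PERK slows translation through eIF2. Phosphorylated eIF2 favours translation of ATF4, which also responds to amino acid shortage and drives Asns, Chac1, Trib3 and Ddit3; this branch is the integrated stress response. Hepatocytes secrete most plasma proteins and hold a large ER. Splicing of Xbp1, cutting of ATF6 and phosphorylation of eIF2 are not read by these probe sets.

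XBP1 and ATF6 bind the ER stress response element (ERSE), in which CCAAT and CCACG stand 9 bases apart, and ATF4 pairs with C/EBP proteins on a composite site whose core is written TGATGNAA here. The members' promoters are shown as a description, and a link between these letters and the time courses was not tested. RefSeq promoter windows of the GRCm38.p6 build, running from 250 bases before to 50 bases after the start of a gene, were at hand for 30 of the 35 members and for 27025 genes in all. Both strands were searched. The ERSE letters stood in the windows of 9 members (Hspa5, Hsp90b1, Calr, Canx, Pdia6, Dnajc3, Creld2, Derl3 and Syvn1), against 0.137% of all genes, and Hsp90b1 had 2 copies. The shorter ERSE-II, ATTGG and CCACG with 1 base between them, stood in Herpud1 and Dnajb11, against 0.0444% of all genes, and TGACGTGG, a site of spliced XBP1, in Sec24d, against 0.714%. The composite core stood in Asns, Chac1, Trib3 and Herpud1, against 4.51% of all genes. The ERSE and ERSE-II share the letters CCACG and the CCAAT box in one orientation or the other, and no 2 matches overlapped in a member's window. A match is a description of the letters and not a binding site. The sequences below run 5′ to 3′ on the strand of the gene, with the matched letters in capitals; a match on the opposite strand begins with CGTGG for the ERSE and with TT for the core.
Hspa5, the 250 bases before the start, ERSE in capitals, chr2:34771840-34772089, plus strand: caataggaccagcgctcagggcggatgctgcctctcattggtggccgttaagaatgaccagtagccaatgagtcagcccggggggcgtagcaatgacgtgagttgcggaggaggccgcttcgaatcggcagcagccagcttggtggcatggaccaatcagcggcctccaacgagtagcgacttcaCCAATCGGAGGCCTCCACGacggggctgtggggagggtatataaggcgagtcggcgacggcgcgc
Creld2, ERSE, chr15:88819506-88819552, plus strand: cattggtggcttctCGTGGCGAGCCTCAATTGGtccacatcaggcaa
Dnajc3, ERSE, chr14:118937813-118937859, plus strand: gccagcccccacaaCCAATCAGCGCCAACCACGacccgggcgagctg
Pdia6, ERSE, chr12:17266477-17266523, plus strand: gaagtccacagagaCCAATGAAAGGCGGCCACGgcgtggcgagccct
Calr, ERSE, chr8:84847061-84847107, minus strand: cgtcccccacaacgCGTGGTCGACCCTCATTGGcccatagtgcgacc
Derl3, ERSE, chr10:75893228-75893274, plus strand: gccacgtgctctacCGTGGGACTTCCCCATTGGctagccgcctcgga
Syvn1, ERSE, chr19:6046518-6046564, plus strand: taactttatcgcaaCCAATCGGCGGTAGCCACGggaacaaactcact
Herpud1, ERSE-II, chr8:94386363-94386401, plus strand: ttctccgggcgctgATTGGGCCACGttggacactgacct
Herpud1, composite core, chr8:94386303-94386338, plus strand: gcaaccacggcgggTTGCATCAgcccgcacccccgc
Asns, composite core, chr6:7693211-7693246, minus strand: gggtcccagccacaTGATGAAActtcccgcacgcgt
Chac1, composite core, chr2:119351035-119351070, plus strand: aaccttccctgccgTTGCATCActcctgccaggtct

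Levels are given as log2 expression and differences as log2 differences of group means ± SE. A gene was called where the adjusted p (limma, Benjamini-Hochberg over the 18194 genes of a comparison) was under 0.05. All comparisons with the controls share the same 5 arrays. The libraries were not alike. The hybridization control transcripts, which are added to every sample, lay between 10.60 and 11.27 in the controls and between 9.51 and 10.57 in the operated groups, apart from 10.85 on 1 of the 24-hour arrays. Control replicate 1 had the widest gap from 5′ to 3′ signal of Gapdh (2.56, against 1.12 to 1.73 in the other controls) and the lowest control level of 24 of the 35 members. The 24-hour replicates 9, 10 and 11 had Xist, an RNA of female cells, at 9.15, 9.48 and 9.12 although the labels say male, while the group's other arrays had it at 3.14 to 3.59. Over the 2000 most variable genes, an array's deviations from the mean of all arrays correlated with those of the rest of its group at -0.50 for 4-week replicate 1 and -0.28 for 1-week replicate 4, and at 0.13 or more for each of the others; this is a correlation across genes, which are not independent replicates. Mean levels of 8 hepatocyte markers were 13.03 to 13.42 on every array and 0 of the 8 were at or below the median of all probe sets in any group. In whole tissue, fewer cells of a type and less RNA per cell cannot be told apart.

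Between 6 and 24 hours many members were higher than in the controls, and from 24 to 48 hours about as many fell. At 1 hour 0 members were higher and 2 lower than in the controls, beside 3.67% and 1.37% of all genes. At 6 hours 17 were higher and 2 lower, beside 11.4% and 10.5% of all genes. At 12 hours 18 were higher and 0 lower (17.9% and 12% of all genes), and at 24 hours 22 were higher and 1 lower (18.9% and 12.8%). The median member stood at 0.59 above the controls at 6 hours, 0.57 at 12 hours and 0.74 at 24 hours, while the median of all genes was -0.02, -0.04 and -0.01.

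Between 24 and 48 hours 18 members fell and 0 rose, beside 1.9% and 3.57% of all genes, with a median difference of -0.69 against -0.04 for all genes. Against the controls, 4 members were higher and 2 lower at 48 hours (17.4% and 13.4% of all genes), 10 and 5 at 3 days (21.7% and 17.7%), 9 and 2 at 4 days (18.8% and 14.1%) and 7 and 3 at 1 week (21.8% and 14.9%). In percent of the 35 members, the higher calls at 3 days, 4 days and 1 week were 28.6%, 25.7% and 20%, close to the shares of all genes. At 2 weeks 0 were higher and 1 lower (2.8% and 0.605%), at 4 weeks 5 and 1 (9.33% and 5.38%) and at 3 months 6 and 0 (16.7% and 13.4%). No member differed between 48 hours and 4 days or between 4 days and 1 week, where limma called 0.995% of all genes (0.352% higher, 0.643% lower) and 0.022% (0.011% in each direction). Set against the 3-month arrays in place of the controls, 20 members were higher and 1, Chac1, was lower at 24 hours, beside 9.43% and 10.8% of all genes. Over all times, 34 of the 35 members differed among the 12 groups (moderated F test), as did 64.6% of all genes. The exception was Atf4 (adjusted p = 0.0758). That test can also pass where operated times differ from each other, so it does not show that each of these members differed from the controls.

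**Figure D1:**
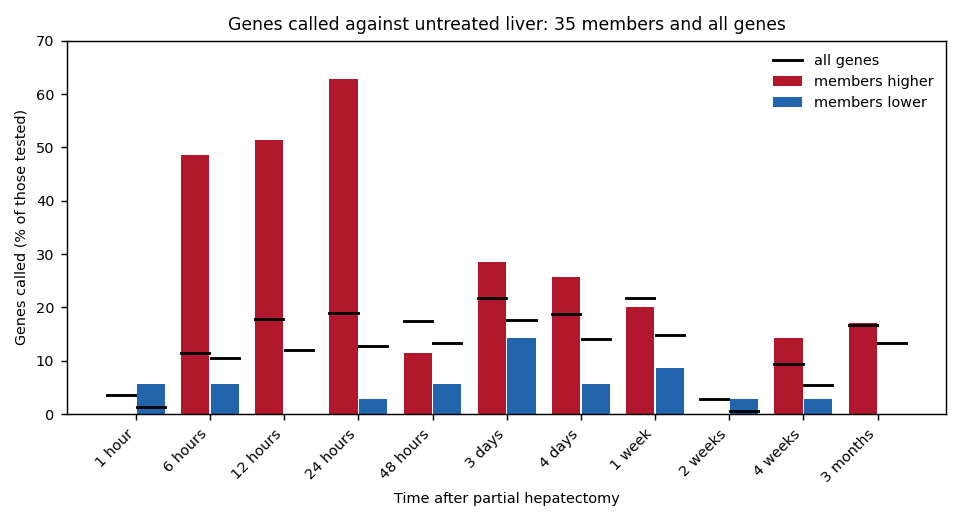
Share of the 35 members called higher (red bars) or lower (blue bars) than the 5 controls at each time after partial hepatectomy, in percent of the genes tested, with a black line at the share among all 18194 genes. The red bars stand well above their lines at 6, 12 and 24 hours and near them from 48 hours on.

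With the hybridization controls as a covariate the counts called at 6, 12 and 24 hours were 14, 18 and 19 in place of 19, 18 and 23, but 3 were called at 48 hours and 0 at 1 hour and at every time from 3 days to 3 months. Of all genes that covariate left 18%, 20.1% and 13.3% called at 6, 12 and 24 hours and 11.8% at 48 hours, with 0.0879% at 1 hour and between 0% and 1.23% from 3 days on. The part of the arrays in these later differences was not tested further. Scaling moved the later directions too. After quantile normalization of the deposited values, 3 members were higher and 4 lower at 48 hours, 1 and 6 at 3 days, 5 and 4 at 4 days, 1 and 8 at 1 week, 2 and 2 at 4 weeks and 2 and 5 at 3 months, while 13 and 2 were so at 6 hours, 16 and 3 at 12 hours and 20 and 1 at 24 hours. Of all genes, quantile normalization called 26.8%, 37%, 30.2%, 33.6%, 15.3% and 25.3% at these 6 later times in either direction, and 25.3%, 31.5% and 31.8% at 6, 12 and 24 hours. After median centring the later splits were 4 and 0 at 48 hours, 10 and 3 at 3 days, 10 and 0 at 4 days, 10 and 2 at 1 week and 9 and 0 at 4 weeks, and the median of all genes at 1 week was 0.15 in place of 0.02. The shares of all genes were then 27.8%, 37.2%, 31.6%, 37.2% and 13.7% at these 5 times. Counted in either direction and with the values as deposited, the share of all genes called was 5.04% for the 1-hour arrays, 22% for 6 hours, 29.9% for 12 hours, 31.7% for 24 hours and 30.8% for 48 hours. The later shares were 39.4% for 3 days, 32.8% for 4 days, 36.7% for 1 week, 3.41% for 2 weeks, 14.7% for 4 weeks and 30.1% for 3 months. It was 10.9% from 1 to 6 hours, 9.72% from 12 to 24 hours, 5.47% from 24 to 48 hours and 20.2% for 24 hours against 3 months. Leaving out each array in turn gave 13 to 20 calls at 6 hours, 16 to 18 at 12 hours and 19 to 24 at 24 hours.

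**Figure D2:**
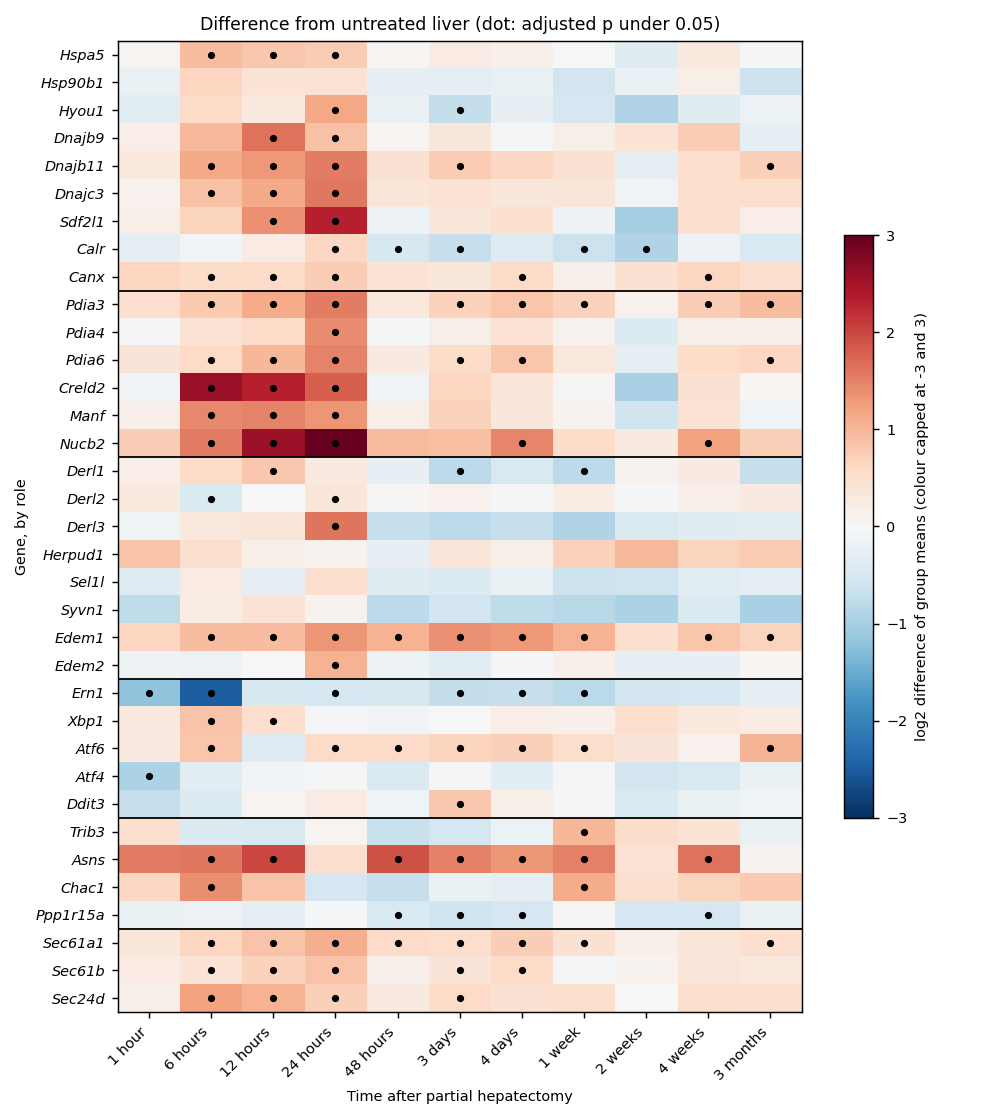
Difference of each member's mean from the 5 controls at the 11 times after partial hepatectomy, in log2 units (red higher, blue lower, colour capped at -3 and 3), with members in rows ordered by role and a dot where the adjusted p was under 0.05. At 24 hours dots mark 8 of 9 chaperones, 6 of 6 luminal proteins and 3 of 3 translocation genes, 2 of 5 sensors and transcription factors, and 0 of 4 integrated stress response targets. Of all genes 31.7% were called in either direction at that time.

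Among the 9 ER chaperones and co-chaperones, 4 rose at 6 hours, 6 at 12 hours and 8 at 24 hours, and 0 fell. Hspa5 encodes BiP, the main ER chaperone and the protein that holds the sensors inactive. Its level on the 5 control arrays was 11.05, 12.19, 11.96, 12.33 and 11.82, and at 1 hour 11.82, 12.03 and 11.97. At 6 hours it reached 12.89, 12.66, 12.90 and 12.77, above every control array (difference 0.93 ± 0.23, adjusted p = 0.00218). It stood at 12.59, 12.72, 12.71 and 12.66 at 12 hours (0.80 ± 0.23, adjusted p = 0.00724), a call that was lost without control replicate 1 (0.59, adjusted p = 0.0517). At 24 hours Hspa5 ran from 12.19 through a median of 12.47 to 13.59 and overlapped the controls (0.76 ± 0.19, adjusted p = 0.00171). The mean of all probe sets of Hspa5 gave 0.66 at 12 hours and 0.56 at 24 hours, neither called (adjusted p = 0.0779 and 0.0594). The 48-hour arrays, at 12.11, 12.08, 11.96 and 11.70, lay within the control range.

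Sdf2l1, a partner of BiP and its J proteins, rose later and further. It was at 7.0 to 8.40 in the controls, 8.34 to 8.59 at 6 hours, 8.99 to 9.34 at 12 hours and 9.39 to 11.80 at 24 hours, with a 24-hour median of 9.88. The difference from the controls was 1.36 ± 0.40 at 12 hours (adjusted p = 0.00754) and 2.33 ± 0.32 at 24 hours (5.03-fold, adjusted p = 3.21e-07), and at both times no array overlapped the controls. At 48 hours it was at 7.99, 7.28, 7.61 and 7.68, which is 2.51 lower than at 24 hours on the log2 scale, with no overlap. Hyou1, the large chaperone that exchanges the nucleotide of BiP, was called against the controls at 24 hours only among the first 5 times. It lay between 8.89 and 9.49 in the controls, 9.68 and 9.87 at 6 hours, 9.27 and 9.69 at 12 hours and 9.62 and 11.31 at 24 hours (1.17 ± 0.22, adjusted p = 4.51e-05), and rose between 12 and 24 hours (0.87 ± 0.23, adjusted p = 0.0111). That last call was lost without 12-hour replicate 1 (0.81, adjusted p = 0.054).

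The J proteins that hand clients to BiP rose too. Dnajc3 was higher at 6 hours (0.88 ± 0.23), 12 hours (1.14 ± 0.23) and 24 hours (1.59 ± 0.19), and Dnajb11 at the same times (1.14 ± 0.25, 1.29 ± 0.25 and 1.54 ± 0.20), each with no overlap between its arrays and the controls. Dnajb9, which works with the degradation machinery, was highest at 12 hours, with the 4 arrays at 10.86 to 11.13 (mean of the controls 9.38, difference 1.62 ± 0.40, adjusted p = 0.0017). Its call at 24 hours (0.89 ± 0.33) was lost without any of control replicates 1 and 5 and 24-hour replicates 1, 9 and 10 (0.52 to 0.83, adjusted p = 0.0524 to 0.261). Control levels of Dnajb9 ran widely, from 7.90 to 10.64.

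The lectin chaperones Calr and Canx, which hold glycoproteins during folding, behaved otherwise. Calr was not called at 6 or 12 hours and was higher at 24 hours (12.28 against 11.67, difference 0.61 ± 0.15, adjusted p = 0.00125). It then lay below the controls at 48 hours (-0.49), 3 days (-0.70), 1 week (-0.65) and 2 weeks (-0.89). The 48-hour call of Calr was lost without any of 5 arrays (-0.37 to -0.49, adjusted p = 0.0585 to 0.166), and the 2-week call without control replicate 1 (-0.85, adjusted p = 0.0654) or either 2-week array (adjusted p = 0.193 and 0.283). Canx was called higher at 6, 12 and 24 hours, 4 days and 4 weeks by 0.56 to 0.74, but without control replicate 1, where it read 9.02, the differences at 6 and 12 hours were 0.26 and 0.27 and were not called (adjusted p = 0.304 and 0.221). The calls of Canx at 4 days and 4 weeks were lost without it too (0.28 and 0.34, adjusted p = 0.192 and 0.197). Hsp90b1, the ER form of HSP90, was never called against the controls, although it was 0.65 higher at 6 hours with all 4 arrays at 12.19 to 12.35 and the controls at 11.43 to 11.74 (adjusted p = 0.053).

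**Figure D3:**
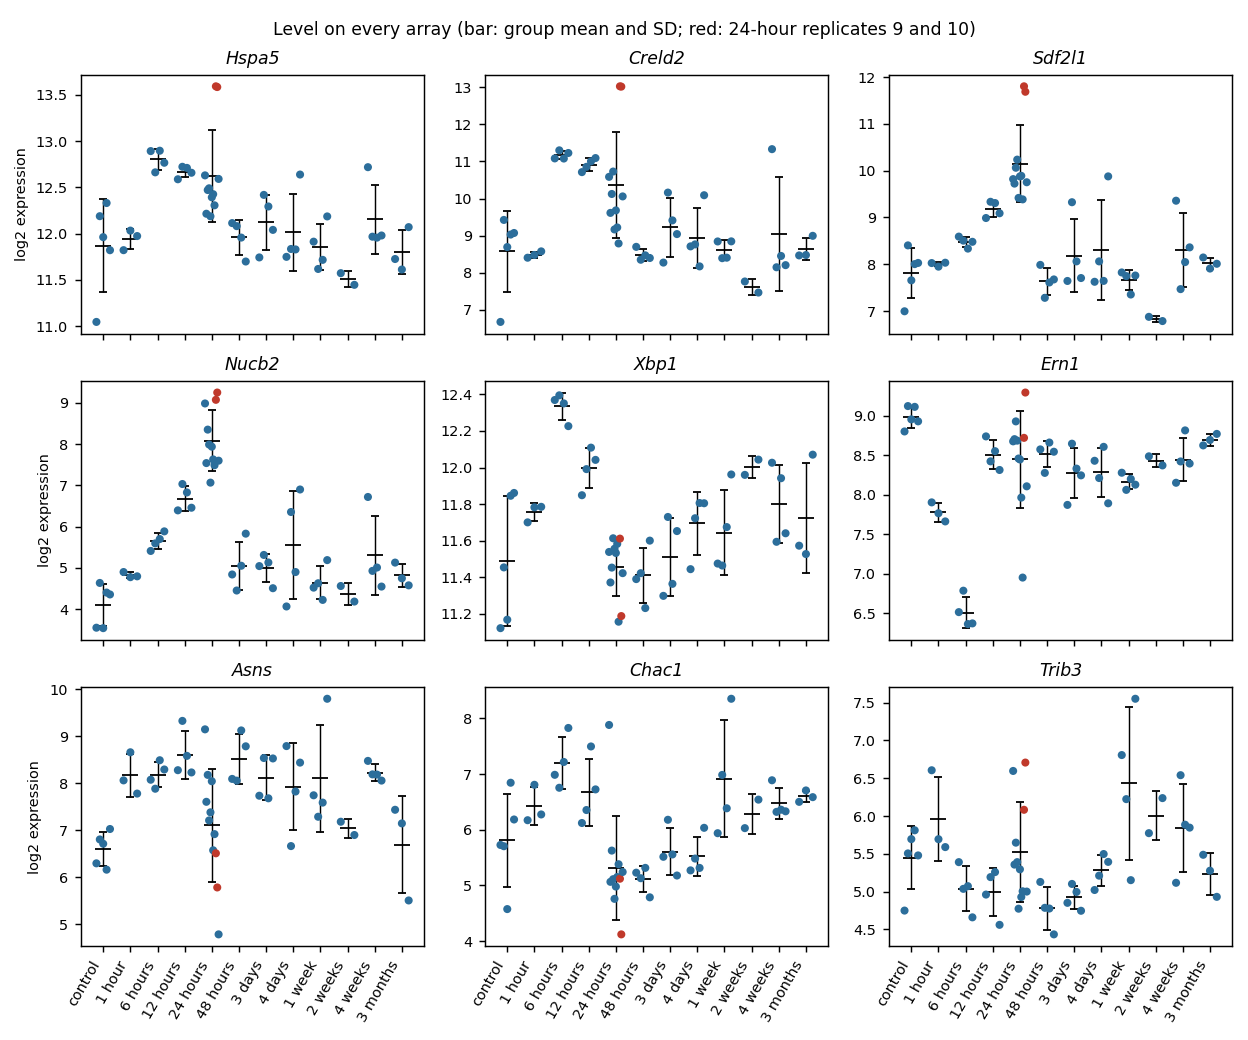
Log2 expression of 9 members on every array (points), by group along the horizontal axis, with a horizontal bar at the group mean and error bars of 1 SD, and with 24-hour replicates 9 and 10 in red; the vertical scales differ between panels and do not start at 0. Hspa5, Creld2 and Xbp1 peak at 6 hours, Nucb2 and Sdf2l1 at 24 hours, Ern1 dips at 6 hours, and Asns, Chac1 and Trib3 spread widely within groups.

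All 6 disulfide isomerases and other luminal proteins rose by 24 hours, after 5 at 6 hours and 5 at 12 hours. Creld2, a secreted ER stress protein with isomerase activity, had the largest rise of the members at 6 hours. On the controls it was at 6.67, 9.42, 8.69, 9.03 and 9.07, and at 1 hour at 8.40, 8.48 and 8.57. It jumped to 11.08, 11.30, 11.08 and 11.23 at 6 hours, a difference of 2.60 ± 0.61 from the controls (6.05-fold, adjusted p = 0.00123) and of 2.69 ± 0.70 from the 1-hour arrays (adjusted p = 0.00686). No array overlapped in either comparison. It stayed at 10.71 to 11.09 at 12 hours (2.34 ± 0.61, adjusted p = 0.00285). At 24 hours the arrays ran from 8.79 through a median of 10.06 to 13.03 (1.79 ± 0.49, adjusted p = 0.00461), overlapped the controls, and without control replicate 1 were not called (1.31, adjusted p = 0.0547). With the hybridization controls as a covariate the 24-hour difference of Creld2 was 1.70 (adjusted p = 0.063).

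Manf, a secreted protein that binds BiP, rose in the same way. It was at 8.68 to 10.17 in the controls, 11.01 to 11.15 at 6 hours and 11.03 to 11.22 at 12 hours (1.45 ± 0.34 and 1.48 ± 0.34, adjusted p = 0.00106 and 0.000668), and was still 1.32 ± 0.27 higher at 24 hours. The isomerases had their highest group means at 24 hours. Pdia3, which acts with Calr and Canx on glycoproteins, stood at 0.78 at 6 hours, 1.12 at 12 hours and 1.55 at 24 hours above the controls. The 6-hour call of Pdia3 was lost without control replicate 1 (0.55, adjusted p = 0.137), without 6-hour replicate 2 (0.76, adjusted p = 0.0559) and without 6-hour replicate 4 (0.77, adjusted p = 0.05). Pdia6, which also dampens the sensors, stood at 0.59, 0.99 and 1.49, and its 6-hour call was lost without any of 6 arrays. Pdia4 passed the test at 24 hours only (1.42 ± 0.23, adjusted p = 6.79e-06), with its 12-hour arrays at 9.65 to 9.87 and its 24-hour arrays at 9.83 to 12.23. With the mean of the probe sets the 24-hour difference was 0.52 for Pdia4 and 0.84 for Pdia6, both called.

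Nucb2, a calcium-binding protein of the secretory pathway and the precursor of nesfatin, had the largest measured difference from the controls of any member. Its control arrays read 3.55, 4.63, 3.54, 4.40 and 4.36, while the median probe set of the control arrays read 4.04, so its control level was not well separated from background and the differences are lower bounds. It read 4.90, 4.77 and 4.79 at 1 hour and 5.41, 5.59, 5.70 and 5.88 at 6 hours. It reached 6.39, 7.03, 6.83 and 6.46 at 12 hours and 7.07 to 9.25, with a median of 7.94, at 24 hours. The groups from 6 to 24 hours climbed without overlap: the differences from the controls were 1.55 ± 0.42, 2.58 ± 0.42 and 3.99 ± 0.33 (adjusted p = 0.00429, 4.88e-06 and 8.34e-12), the last of them at least 15.9-fold, and the 24-hour arrays exceeded the 12-hour arrays by 1.40 ± 0.36 (adjusted p = 0.00821). By 48 hours Nucb2 was back at 4.84, 4.45, 5.05 and 5.83, a fall of 3.04 on the log2 scale from 24 hours (adjusted p = 6.07e-07).

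The ER-associated degradation genes, which draw misfolded proteins out to the proteasome, were divided. Of 8, 1 rose and 1 fell at 6 hours, 2 rose at 12 hours and 4 rose at 24 hours. Edem1, a mannosidase-like protein that marks glycoproteins for disposal, was called higher at 9 of the 11 times, all but 1 hour and 2 weeks, by 0.66 to 1.37. Its lowest control array read 7.29 and the others 8.36 to 8.90, while the 3-day arrays read 9.80, 9.55, 9.82 and 9.78. The 3-month call was lost without control replicate 1 or 3-month replicates 1 or 2 (0.39 to 0.64, adjusted p = 0.0549 to 0.0953). The mean of the gene's probe sets was 0.80 at 24 hours in place of 1.33, and it was not called at 12 hours, 4 weeks and 3 months (0.37, 0.39 and 0.45, adjusted p = 0.104 to 0.176). Edem2 was unlike it and rose at 24 hours alone: 7.64 to 8.13 in the controls, 7.68 to 8.31 at 12 hours, 8.39 to 9.71 at 24 hours and 7.32 to 8.28 at 48 hours. The difference of Edem2 from the controls was 1.05 ± 0.17 (adjusted p = 8.17e-06) and from the 12-hour arrays 1.04 ± 0.19 (adjusted p = 0.000253), with no overlap at either, and the mean of its probe sets gave 0.51 and 0.57, both called.

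Derl3, a derlin of the retrotranslocation channel found mostly in secretory tissues, also rose at 24 hours alone. Controls read 6.57, 6.04, 6.43, 6.42 and 7.29, the 12-hour arrays 6.88, 7.27, 6.98 and 6.57, and the 24-hour arrays 7.41 to 10.61 with a median of 7.62. Every 24-hour array was above every control (1.61 ± 0.34, adjusted p = 0.000297), and the 48-hour arrays, at 6.04, 6.01, 5.45 and 5.90, were below every 24-hour array (-2.31 ± 0.37 against 24 hours, adjusted p = 3.15e-05). Derl2 fell at 6 hours (9.34 against 9.78 in the controls and 10.08 at 1 hour, adjusted p = 0.00562 and 0.000144), with the 4 arrays between 9.30 and 9.39 and 1 control array, at 9.24, below them. At 24 hours Derl2 was called 0.36 higher, but the mean of its 2 probe sets was 0.08 lower, and the call was lost without control replicate 1 (0.22, adjusted p = 0.0823).

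Derl1 was read by 4 probe sets that did not agree. The brightest read 9.39 to 9.77 in the controls and 10.54, 10.78, 10.33 and 10.19 at 12 hours, its highest group (0.82 ± 0.30, adjusted p = 0.0315), and lay below the controls at 3 days (-0.79) and 1 week (-0.78). The mean of its probe sets was instead 0.61 and 0.65 above the controls at those later times (adjusted p = 0.0102 and 0.00691), so the later direction of Derl1 is not settled. Even the 12-hour call was lost without any of 4 arrays, control replicates 1 and 5 and 12-hour replicates 1 and 2 (0.71 to 0.80, adjusted p = 0.0532 to 0.109). Herpud1, Sel1l and Syvn1, which form the membrane complex around the HRD1 ligase, were not called against the controls at any time. Herpud1 ranged from 9.18 to 11.26 over all arrays and was highest at 2 weeks (0.97 above the controls, adjusted p = 0.169).

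The sensors and transcription factors did not follow the chaperones. Ern1 had the largest fall of any member against the controls. It read 8.80, 9.12, 8.95, 9.11 and 8.93 in the controls and 7.90, 7.76 and 7.66 at 1 hour (-1.21 ± 0.25, adjusted p = 0.00274). At 6 hours it was down to 6.51, 6.78, 6.36 and 6.37 (-2.48 ± 0.23, adjusted p = 5.62e-11), below every array of both earlier groups, and at 12 hours it had returned to 8.74, 8.42, 8.55 and 8.31. Over the 24-hour arrays Ern1 ran from 6.95 through 8.67 to 9.29. The gene's other 4 probe sets were dim, at 2.49 to 4.77 on average, and at 6 hours read between -0.88 and 0.42 against the controls, so the fall rests on the brightest one. Calls of smaller falls were made at 24 hours (-0.54), 3 days (-0.71), 4 days (-0.70) and 1 week (-0.82); the first was lost without control replicate 2 or 4, the second without 3-day replicate 1 and the third without 4-day replicate 2 or 4 (adjusted p = 0.0502 to 0.0756).

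Xbp1, whose mRNA is the substrate of IRE1, moved in the opposite direction at 6 hours. It read 11.12, 11.45, 11.17, 11.85 and 11.86 in the controls, 11.70, 11.78 and 11.79 at 1 hour and 12.37, 12.39, 12.35 and 12.23 at 6 hours, with no overlap between the last and the first 2 groups (0.85 ± 0.14 against the controls, adjusted p = 6.24e-06, and 0.58 ± 0.16 against 1 hour, adjusted p = 0.00902). At 12 hours Xbp1 was at 11.85, 11.99, 12.11 and 12.04 (0.51 ± 0.14, adjusted p = 0.00358). At 24 hours, when 8 of the 9 chaperones were higher, Xbp1 was back at 11.16 to 11.61, below every 12-hour array (-0.54 ± 0.12, adjusted p = 0.00191) and not called against the controls (-0.03 ± 0.11, adjusted p = 0.849). Atf6 was higher at 6 hours (8.02 against 7.19, adjusted p = 0.00103), at 6.90, 7.23, 6.58 and 6.50 at 12 hours, and called higher again at 24 hours (0.58), 48 hours, 3 and 4 days, 1 week and 3 months (1.02 ± 0.21, adjusted p = 0.000479). Its rise from 12 to 24 hours was 0.96 ± 0.17 (adjusted p = 0.000166), but 0.31 and not called with the mean of its probe sets (adjusted p = 0.176). The 24-hour call of Atf6 against the controls was lost without control replicate 1 (0.40, adjusted p = 0.0554). Its 48-hour call was lost without control replicate 1 or 48-hour replicates 3 or 4 (0.41 to 0.54, adjusted p = 0.0581 to 0.115), and the 1-week call without control replicate 1 or 1-week replicates 1, 2 or 3 (0.36 to 0.52, adjusted p = 0.052 to 0.143).

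Atf4 and Ddit3 (CHOP), the transcription factors of the integrated stress response, were not called higher at 6, 12 or 24 hours. Atf4 read 9.93, 9.62, 9.62, 9.10 and 8.94 in the controls, 8.43, 8.55 and 8.52 at 1 hour, 9.09 to 9.16 at 6 hours, 9.27 to 9.55 at 12 hours and 9.03 to 10.26 at 24 hours with a median of 9.39. The 1-hour arrays lay below all controls (-0.94 ± 0.28, adjusted p = 0.0377), a call that ended without any of the 3 arrays of 1 hour or control replicates 1, 2 and 3 (-0.82 to -0.97, adjusted p = 0.0603 to 0.156). Ddit3 read 5.95, 6.92, 7.11, 5.86 and 5.35 in the controls, 5.42 to 5.70 at 1 hour, 5.73 to 5.96 at 6 hours and 5.24 to 7.41 with a median of 6.61 at 24 hours. Its only call was at 3 days, at 6.88, 7.54, 7.11 and 6.68 (0.81 ± 0.32, adjusted p = 0.0393), which overlapped the controls and was lost without any of 6 arrays (adjusted p = 0.0542 to 0.151).

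Of the 4 integrated stress response targets, 2 rose at 6 hours, 1 at 12 hours and 0 at 24 hours. Of all genes 11.4%, 17.9% and 18.9% were higher at these times, so among only 4 genes 0 calls at 24 hours lies near the share of all genes. Asns, asparagine synthetase, read 6.30, 6.81, 6.71, 6.16 and 7.03 in the controls and was above all of them at 1 hour (8.06, 8.66 and 7.78), 6 hours (8.08, 7.88, 8.49 and 8.29), 12 hours (8.28, 9.33, 8.58 and 8.23) and 48 hours (8.09, 8.06, 9.12 and 8.79). The differences were 1.57, not called, at 1 hour, 1.58 ± 0.52 at 6 hours (adjusted p = 0.0218), 2.00 ± 0.52 at 12 hours (adjusted p = 0.00257) and 1.91 ± 0.52 at 48 hours (adjusted p = 0.00464). Between them, at 24 hours, Asns ran from 4.79 through a median of 7.21 to 9.15 and was not called (0.50, adjusted p = 0.378). That group was lower than the 12-hour group (-1.5 ± 0.45, adjusted p = 0.0258), although not without 12-hour replicates 2 or 3 (adjusted p = 0.142 and 0.0688) or without 24-hour replicates 9 and 10 together (-1.29, adjusted p = 0.0574). The 24-hour value of Asns also rose when replicates 9, 10 and 11, which read 6.51, 5.79 and 4.79, were left out together. It was then 1.03 ± 0.37 above the controls and called (adjusted p = 0.0275). The 6-hour call of Asns ended without control replicate 4 or 6-hour replicate 3 or 4 (1.47 to 1.55, adjusted p = 0.0501 to 0.0635).

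Asns was also called at 3 days (1.5), 4 days (1.33), 1 week (1.5) and 4 weeks (1.63), each of which ended when single arrays were left out, the 1-week call without replicate 4 (0.94, adjusted p = 0.175). Chac1, which degrades glutathione, was higher at 6 hours (6.99, 6.75, 7.22 and 7.83 against 5.73, 5.70, 4.57, 6.84 and 6.18, difference 1.39 ± 0.43, adjusted p = 0.0145), with 1 array inside the control range. That call ended without control replicate 3 (1.08, adjusted p = 0.0756) or 6-hour replicate 4 (1.18, adjusted p = 0.0733). From 12 to 24 hours Chac1 fell by 1.36 (adjusted p = 0.0139), to 4.12 to 7.88 with a median of 5.12, except when 12-hour replicate 3 was left out (-1.09, adjusted p = 0.114). Ppp1r15a (GADD34), which returns eIF2 to its unphosphorylated state, was not called in the first 24 hours and lay below the controls at 48 hours (-0.46), 3 days (-0.59), 4 days (-0.50) and 4 weeks (-0.52). Of these, the 48-hour call was lost without 48-hour replicate 1 or 2, the 4-day call without 4-day replicate 2 and the 4-week call without 4-week replicate 2 (-0.32 to -0.47, adjusted p = 0.0515 to 0.122), and these 3 calls were lost after median centring too (-0.36 to -0.43, adjusted p = 0.0566 to 0.0848).

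Trib3, a pseudokinase induced by ATF4 and CHOP, was called at 1 week only. Controls read 4.75, 5.51, 5.70, 5.81 and 5.48, the 24-hour arrays 4.77 to 6.71 with a median of 5.36, and the 1-week arrays 6.81, 6.22, 5.15 and 7.55 (0.99 ± 0.34, adjusted p = 0.0198). The call rested on single arrays and was lost without 1-week replicate 4 (0.61, adjusted p = 0.172), 1-week replicate 1 (0.86, adjusted p = 0.0642) or control replicate 1 (0.81, adjusted p = 0.0754). Replicate 4 of 1 week was the highest of its group for Atf4 (10.87 against 8.70 to 9.06), Asns (9.80 against 7.29 to 7.75), Chac1 (8.35 against 5.94 to 6.98), Trib3 and Ppp1r15a (7.01 against 6.15 to 6.20). Markers of other cells were high on the same array: the Kupffer cell mean was 7.90 against 6.36 to 6.84 on the group's other arrays, the neutrophil mean 5.93 against 4.19 to 4.35 and the mean of stellate cells and fibroblasts 8.29 against 7.4 at most. The part of these cells in the values of that array was not tested. Without it the 1-week differences of Asns, Chac1 and Trib3 were 0.94, 0.63 and 0.61, and none of these 3 was called. A like pattern was seen on 24-hour replicate 1, the highest of its 11 arrays for Atf4 (10.26), Asns (9.15) and Chac1 (7.88). The gap from 5′ to 3′ signal of Gapdh was 2.32 on that array, against 0.53 to 1.09 on the others of its group, and its part in these levels was not tested.

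The 3 translocation and export genes rose together at 6, 12 and 24 hours. Sec61a1, the pore subunit, read 10.17, 10.46, 10.48, 10.33 and 10.52 in the controls, 10.93 to 11.17 at 6 hours, 11.35, 11.35, 11.23 and 11.04 at 12 hours and 11.16 to 12.01 with a median of 11.36 at 24 hours. No array of these times overlapped the controls (0.64 ± 0.15, 0.85 ± 0.15 and 1.09 ± 0.12, adjusted p = 0.0012, 2.24e-05 and 4.74e-09). It was among the few members still called at 48 hours, with the 4 arrays at 10.85 to 11.06 (0.58 ± 0.15, adjusted p = 0.0032). Sec61b, the small subunit, stood at 0.41, 0.69 and 0.85 above the controls, and its 6-hour call ended without any of 7 arrays. Sec24d, a cargo receptor of the COPII coat that carries proteins to the Golgi, peaked earlier: 8.71, 9.36, 9.17, 9.47 and 9.59 in the controls, 10.35, 10.52, 10.52 and 10.47 at 6 hours, 10.34, 10.40, 10.25 and 10.27 at 12 hours and 9.32 to 10.91 with a median of 9.96 at 24 hours. Its differences were 1.20 ± 0.22, 1.05 ± 0.22 and 0.72 ± 0.17, the first 2 without overlap.

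The order in time was thus not the same for all members. The highest group mean fell at 6 hours for 6 members (Hspa5, Hsp90b1, Creld2, Xbp1, Chac1 and Sec24d), at 12 hours for 5 (Dnajb9, Manf, Asns, Derl1 and Syvn1) and at 24 hours for 16. Of the others, 2 were highest in the controls (Ern1 and Atf4), 2 at 3 days (Edem1 and Ddit3) and 2 at 1 week (Trib3 and Ppp1r15a). Herpud1 was highest at 2 weeks and Atf6 at 3 months. Without 24-hour replicates 9 and 10 the 24-hour means of Canx, Derl2 and Sel1l were 10.85, 10.04 and 9.43, each below another group's mean. Hsp90b1, Syvn1, Sel1l and Herpud1 were not called against the controls at any time. Neighbouring times often did not differ beyond their spread. From 1 to 6 hours 7 members rose and 2 fell, beside 4.45% and 6.44% of all genes, and the 5 that passed without each array in turn were Creld2, Xbp1 and Sec24d, which rose, and Derl2 and Ern1, which fell. From 12 to 24 hours 7 rose (Hyou1, Pdia4, Nucb2, Derl2, Derl3, Edem2 and Atf6) and 3 fell (Xbp1, Asns and Chac1), beside 5.13% and 4.58% of all genes, and of these 10 Nucb2, Edem2, Atf6 and Xbp1 passed without each array in turn.

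From 24 to 48 hours the 18 that fell comprised 7 chaperones and co-chaperones, 6 of 6 luminal proteins, 3 degradation genes and 2 translocation genes. The largest falls were those of Nucb2 (-3.04 ± 0.36), Sdf2l1 (-2.51 ± 0.35), Derl3 (-2.31 ± 0.37) and Creld2 (-1.89 ± 0.54). Of the 18, 12 passed without each array in turn, and Creld2 did not (-1.85 to -1.96 and adjusted p = 0.0513 to 0.0847 without single 48-hour arrays). Hspa5 also fell by 0.66 (adjusted p = 0.043), a call lost without any of 7 arrays. None of the sensors or integrated stress response targets fell between these times.

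Members with an ERSE or ERSE-II in the promoter window were spread over this order. Of the 11, 6 were higher at 6 hours, 6 at 12 hours and 8 at 24 hours, and 8 fell from 24 to 48 hours. Creld2 and Hspa5, printed above, peaked at 6 hours, Dnajc3 and Pdia6 climbed to 24 hours, and Calr and Derl3 were first called at 24 hours. Hsp90b1, Herpud1 and Syvn1 were not called at all against the controls. Of the 16 members with a promoter window and neither these letters nor the composite core, 6 were higher at 6 hours, 8 at 12 hours and 10 at 24 hours. The 18 measured genes outside the set that held an ERSE or ERSE-II numbered 2 higher and 1 lower at 6 hours, 5 and 3 at 12 hours and 4 and 4 at 24 hours. In percent these were 11.1% and 5.56%, 27.8% and 16.7%, and 22.2% and 22.2%, beside 11.4% and 10.5%, 17.9% and 12%, and 18.9% and 12.8% of all genes. The 4 members with the composite core (Asns, Chac1, Trib3 and Herpud1) had 2 higher at 6 hours, 0 at 24 hours and 3 at 1 week. They had 1 higher at each of 12 hours, 48 hours, 3 days, 4 days and 4 weeks, and 0 at the other times. Of all genes 11.4%, 18.9% and 21.8% were higher at 6 hours, 24 hours and 1 week. Of 461 measured genes outside the set with the core, 11.5% were higher at 6 hours and 15.6% at 24 hours. The 3 calls at 1 week were lost without 1-week replicate 4.

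**Figure D4:**
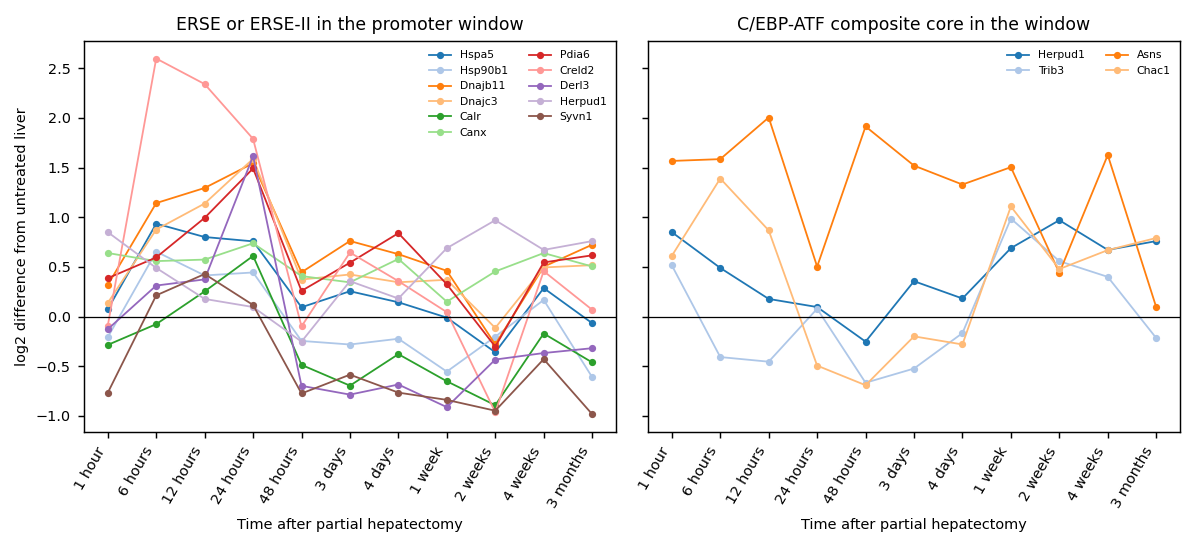
Difference of group means from the 5 controls in log2 units at the 11 times after partial hepatectomy, for the 11 members whose promoter window holds an ERSE or ERSE-II (left) and the 4 with the composite core (right); each line is a gene, and Herpud1 is in both panels. Most lines on the left rise by 24 hours and drop at 48 hours, while those on the right are at or below 0.50 at 24 hours.

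Within the 24-hour group, replicates 9 and 10 stood apart for the members. Both were above all 9 other arrays for 26 of the 35 members, which was so for 5.79% of all genes. This pair was set apart after the data were seen, so the count is a description and not a test. Creld2 read 13.03 and 13.02 on them against 8.79 to 10.73 on the others, Derl3 10.28 and 10.61 against 7.41 to 8.06, Sel1l 11.22 and 11.34 against 8.87 to 10.17, and Hspa5 13.59 and 13.59 against 12.19 to 12.63. The 9 exceptions were Herpud1, Ern1, Xbp1, Atf6, Atf4 and the 4 integrated stress response targets. Xbp1, at 11.61 and 11.19, lay within the range of the others, and Asns, at 6.51 and 5.79, near its lower end. Replicate 11 also had Xist but not these levels, with Creld2 at 10.06 and Hspa5 at 12.59.

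Without replicates 9 and 10, 21 members were higher and 1 lower at 24 hours, in place of 22 and 1. The differences from the controls were then 0.54 ± 0.15 for Hspa5, 1.20 ± 0.38 for Creld2, 1.98 ± 0.27 for Sdf2l1, 1.11 ± 0.19 for Derl3 and 3.75 ± 0.32 for Nucb2, all still called (adjusted p = 0.00545, 0.0148, 2.86e-07, 2.79e-05 and 2.3e-11). Dnajb9 was the member whose call was lost (0.61 ± 0.30, adjusted p = 0.119). From 24 to 48 hours 14 members then fell in place of 18. Sel1l, Hspa5, Hsp90b1 and Creld2 dropped out (adjusted p = 0.094, 0.123, 0.146 and 0.0651). Without a further set of doubted arrays, 7 in all including control replicate 1 and 24-hour replicates 1, 9, 10 and 11, 16 members were higher at 24 hours, and Hspa5 (0.28, adjusted p = 0.11), Creld2 (0.56, adjusted p = 0.136) and Canx (0.29, adjusted p = 0.0523) were among those lost. Manf, Sec24d, Pdia4 and Edem1 were still called, at 0.68, 0.36, 0.91 and 0.88 in place of 1.32, 0.72, 1.42 and 1.33. With all arrays 18.9% of all genes were higher and 12.8% lower at 24 hours, and 1.9% fell from 24 to 48 hours. The shares of all genes without the arrays named here are not given, so the changed counts cannot be assigned to the members.

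**Figure D5:**
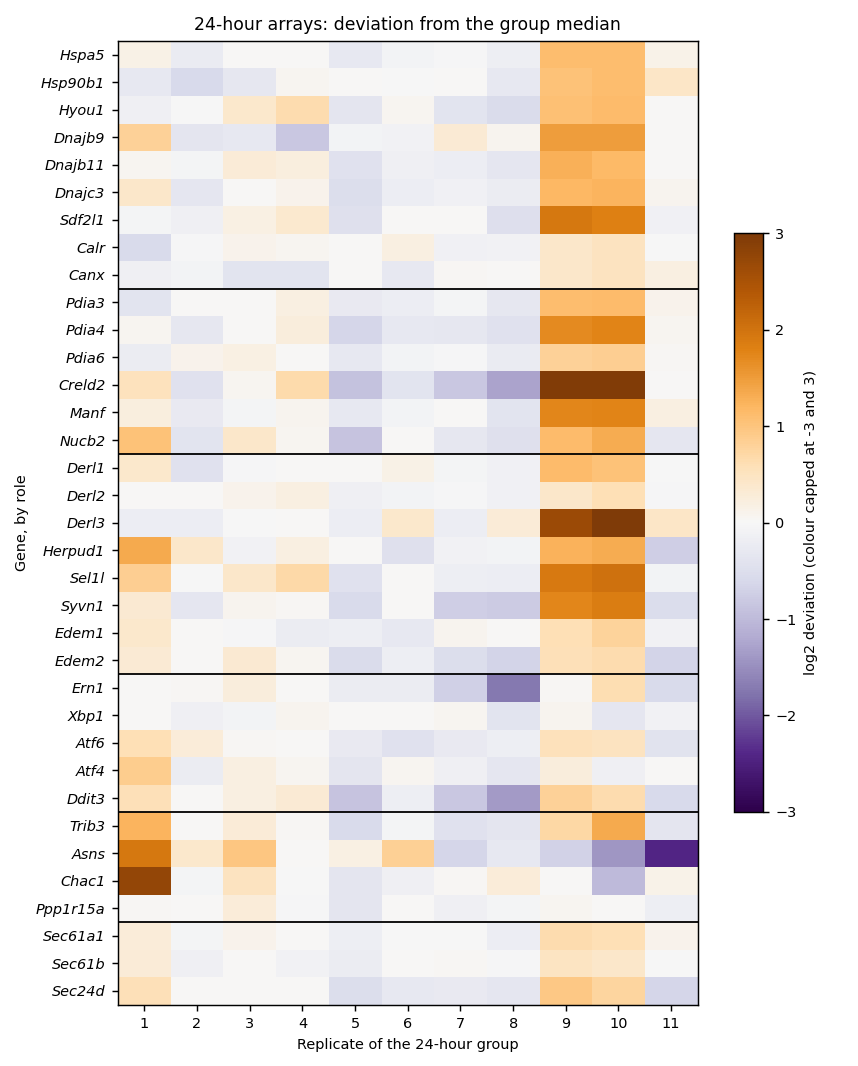
Deviation of each member on each of the 11 arrays of the 24-hour group from that group's median, in log2 units (orange above, purple below, colour capped at -3 and 3), with members in rows ordered by role. Replicates 9 and 10 were both above all 9 other arrays for 26 members, and replicate 1 is high for Asns and Chac1.

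Arrays that stood high for the members were found in other groups too. The first replicate of 4 weeks was the highest of its 4 arrays for 30 of the 35 members, with Creld2 at 11.33 against 8.14 to 8.45 and Hspa5 at 12.72 against 11.96 to 11.98. Replicate 4 of 4 days was the highest for 27 and replicate 2 of 3 days for 24. With these 3 arrays left out, 2 members were called at 4 weeks in place of 6. Over the most variable genes, their deviations correlated with the rest of their groups at -0.50 (4 weeks), 0.20 (4 days) and 0.13 (3 days). Shares of all genes that were highest on these arrays, or called without them, are not given. The counts thus cannot be assigned to the members, and a shift of the whole array was not tested.

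Genes that act beside the members were described from lists chosen for their roles. The shares of all genes, for all of these lists, were 11.4%, 17.9% and 18.9% higher at 6, 12 and 24 hours. Those lower were 10.5%, 12% and 12.8%. Of 31 other genes of translocation and N-glycosylation 17 were higher at 6 hours, 25 at 12 hours and 27 at 24 hours, and 0 were lower at these times. Ostc, a subunit of the oligosaccharyltransferase, rose by 2.14 ± 0.27 at 12 hours, and Spcs1, of the signal peptidase, and Ssr2, of the translocon-associated complex, by 1.83 ± 0.27 and 1.67 ± 0.23. The 29 other folding and redox enzymes had 6 higher and 2 lower at 6 hours, 13 and 2 at 12 hours and 26 and 0 at 24 hours. Fkbp11, a prolyl isomerase of secretory cells, was 2.35 ± 0.30 higher at 24 hours and Erp29 1.90 ± 0.20 higher, while Hspa13 was 2.01 ± 0.36 higher at 12 hours. Other genes of ER-to-Golgi transport numbered 15 higher and 2 lower of 32 at 6 hours and 20 and 1 at 24 hours, led by the cargo receptor Tmed3 (2.28 ± 0.35 at 12 hours) and the vesicle protein Sec22b (1.76 ± 0.25 at 12 hours). Arfgap3 rose by 1.36 ± 0.36 at 12 hours.

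The 24 other degradation genes had 7 higher and 3 lower at 6 hours and 15 and 1 at 24 hours, led by the ubiquitin-conjugating enzyme Ube2g2 (1.53 ± 0.23 at 6 hours), the lectin Erlec1 (1.34 ± 0.21 at 1 week) and Edem3 (1.15 ± 0.23 at 12 hours). Of 8 other membrane-bound transcription factors and their processing enzymes 3 were higher and 1 lower at 6 hours and 5 higher and 0 lower at 24 hours. Creb3l3, a liver factor of this kind, was 1.28 ± 0.14 higher at 12 hours, Creb3 0.94 ± 0.16 at 12 hours and the protease Mbtps2 0.75 ± 0.16 at 6 hours.

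The other ATF4 targets were mixed. Of 30, 7 were higher and 2 lower at 6 hours, 10 and 5 at 12 hours and 14 and 1 at 24 hours. Atf3, an early stress factor, was 2.77 ± 0.43 higher at 1 hour. Shmt2, of mitochondrial one-carbon metabolism, was 2.19 lower on the log2 scale at 12 hours (7.71 against 9.90). Psat1, of serine synthesis, was called higher at 24 hours, at 5.30 ± 2.12 (SD, n = 11) against 2.98 ± 0.22 (SD, n = 5), but its arrays were widely spread and its control level was under that of the median probe set, so no size of the difference is given. Among 11 eIF2 kinases and eIF2 control genes 3 were higher and 1 lower at 6 hours and 6 and 2 at 24 hours, with Eif2b3 (1.14 ± 0.22) and Eif2b4 (1.09 ± 0.21), subunits of the eIF2 exchange factor, higher at 12 hours and Eif2ak2 (0.89 ± 0.21), the kinase PKR, at 3 months. Of 8 genes of ER stress and cell death 0 were higher and 1 lower at 6 hours and 2 higher and 3 lower at 24 hours. Among only 8 genes, the 0 and 2 higher calls lie near the 11.4% and 18.9% of all genes. Bcl2l11 and Wfs1 were 1.33 ± 0.40 and 1.26 ± 0.25 higher at 12 hours, and Bbc3 (PUMA) was 0.92 lower on the log2 scale at 6 hours.

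Cell types with a large ER other than hepatocytes, and immune cells, were read by their markers. The mean level of 11 plasma and B cell markers was 4.43 to 4.86 over the control arrays and 4.04 to 4.87 over the 24-hour arrays, with 8 of the 11 at or below the median of all probe sets in both groups. That of 10 pancreatic acinar markers was 4.28 to 4.54 in the controls and 3.83 to 4.32 at 24 hours, with 5 and 6 at or below it. On 24-hour replicates 9 and 10 the plasma and B cell mean was 4.50 and 4.36 and the acinar mean 4.13 and 4.17, within the range of the other arrays. Single markers of both lists differed: mean Ighm was 7.94 in the controls and 6.07 at 24 hours, Sdc1 10.59 and 10.98, and Cela1 7.89 and 6.89. The F test over all groups called 6 of the 11 and 6 of the 10, beside 64.6% of all genes. The mean of 10 Kupffer cell markers was 4.34 to 5.14 in the controls, 5.75 to 6.84 at 1 hour, 5.43 to 5.60 at 6 hours and 5.27 to 5.72 at 12 hours. It was 5.69 to 7.15 at 24 hours, with 6.24 and 6.02 on replicates 9 and 10, and 5.11 to 6.44 at 48 hours. Of these 10 markers 5 were higher at 1 hour, 2 at 6 hours, 2 at 12 hours and 8 at 24 hours, and 0 were lower. Of all genes 3.67%, 11.4%, 17.9% and 18.9% were higher at these times, so the 12-hour count lies near that share. The mean of 8 neutrophil markers was 4.13 to 4.31 in the controls, and above them all at 6 hours (4.75 to 5.14) and 12 hours (4.55 to 5.05). Of the 8, 2 were called higher and 0 lower at each of these times, beside 11.4% and 17.9% of all genes higher. Mean S100a8 was 3.01 in the controls, 6.78 at 6 hours and 6.58 at 12 hours, and S100a9 3.65, 6.78 and 6.58. Camp, Ltf, Elane and Csf3r were lower than in the controls at 6 hours, and Ngp and Mpo slightly higher. At 12 hours all of these others were lower. The mean of the 8 was 4.2 to 5.06 at 24 hours and 3.97 to 4.38 at 48 hours. In the controls and at 6, 12, 24 and 48 hours 4, 2, 3, 4 and 4 of the 8 were no higher than the median probe set. The part of these cells in the members' levels was not tested.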

How the data were processed

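The values are log2 expression per probe set as the authors deposited them; per the submitters' processing notes they were made with RMA in oligo 1.52.0. The sources used here do not give whether RMA was run on the 52 arrays at once. Of 45101 probe sets, 34945 were annotated to a single gene, and these gave 18194 genes, each read by its probe set with the highest mean; the 35 members had 82 such probe sets. Group means were fitted in limma 3.58.1 (R 4.3.3) on all 52 arrays, two-sided, with Benjamini-Hochberg adjustment per comparison and a threshold of 0.05. The procedure was tested on simulated data. Arrays have no read depth, and their number limits the precision. All 35 members are named, and those with the widest range of group means in each role are given array by array; of each list of other genes, those with the largest called differences are named. The members and lists were chosen with earlier results of these data known. Alternatives were median centring, quantile normalization, the average of every probe set of a gene, a filter on low values, the replicate number as a block, the hybridization controls as a covariate, and arrays left out. Same-numbered arrays of different groups did not deviate together more than others. Their correlations had a median of -0.003 over 224 pairs, 48 of them over 0.1, and ran from -0.55 to 0.56. Pairs with other numbers had a median of 0.005 over 988 pairs, 257 of them over 0.1. A general pairing by number was thus not seen, but medians cannot exclude that some samples were paired. Promoter letters came from RefSeq GRCm38.p6; Atf6, Hyou1, Derl1, Sec61a1 and Manf had no matched window. No protein sequences were used here.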

Additional observations from a re-analysis of the deposited data

Results flagged for a closer look

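For the 16 members given array by array (the other 19 were not tested), 128 sets of 4 to 10 arrays of a single member and group were tested. Of these, 11 held an array farther from the others than Dixon's 95% limit allows, which chance gives for about 1 in 20 independent sets. The 128 sets are not independent, because the members share the same arrays, so the count cannot be weighed against that rate. Replicate 1 of 4 weeks was high for Hspa5 (12.72, the next array at 11.98), Creld2 (11.33, next 8.45), Derl1 (10.52, next 9.76) and Chac1 (6.89, next 6.36). Replicate 4 of 4 days was high for Hspa5 (12.64, next 11.83) and Hyou1 (9.79, next 8.69). Replicate 4 of 1 week was high for Derl1 (10.11, next 8.54) and Atf4 (10.87, next 9.06). Replicate 1 of the controls was low for Creld2 (6.67, next 8.69), replicate 3 of 1 week was low for Sdf2l1 (7.36, next 7.75), and replicate 2 of 3 days was low for Sec61a1 (10.49, next 11). Outside the members, Xist was present on 24-hour replicates 9, 10 and 11, at 9.15, 9.48 and 9.12, while the control arrays lay between 3.19 and 3.68.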

How the results depend on the processing

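The counts of members called at 6, 12 and 24 hours against the controls stayed within 1.5 times under every alternative run (14 to 20, 17 to 21 and 17 to 24 over settings other than single arrays left out), and over 1401 values of 175 called results 1164 kept their direction and side of the threshold, 233 lost the call and 4 reversed. The reversals were those of Derl2 at 24 hours (-0.079), Derl1 at 3 days (0.61) and Derl1 at 1 week (0.65) with probe sets averaged per gene, and Derl1 at 3 days (0.0091) with the hybridization covariate. That covariate gave 0 calls at 1 hour and at each time from 3 days to 3 months, and 3 at 48 hours. The replicate block gave 4 calls in place of 2 at 1 hour and 2 in place of 1 at 2 weeks, where median centring and quantile normalization also gave 2; under the block the counts were 13 in place of 18 from 24 to 48 hours and 14 in place of 21 for 24 hours against 3 months. Quantile normalization gave 7 in place of 15 at 3 days, and the mean of probe sets 5 in place of 9 from 1 to 6 hours. Without the 7 doubted arrays the counts were 4 at 2 weeks, 3 at 4 weeks, 10 at 3 months, 16 from 1 to 6 hours, 16 from 12 to 24 hours and 1 from 48 hours to 4 days; without the 3 high arrays of 3 days, 4 days and 4 weeks, chosen after the data were seen, the 4-week count was 2. The causes were not tested.

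With single arrays left out, the counts ran from 1 to 4 at 1 hour, 13 to 20 at 6 hours, 16 to 18 at 12 hours, 19 to 24 at 24 hours, 4 to 7 at 48 hours, 8 to 15 at 3 days, 8 to 11 at 4 days, 6 to 11 at 1 week, 0 to 2 at 2 weeks, 2 to 6 at 4 weeks and 2 to 8 at 3 months. They ran from 5 to 7 for 6 hours against 1 hour, 6 to 12 for 24 against 12 hours and 12 to 19 for 48 against 24 hours. For 24 hours against 3 months they ran from 13 to 23, and for the F test over all groups from 33 to 35. They were 0 for 4 days against 48 hours and for 1 week against 4 days. Leaving out control replicate 1 moved the counts by more than 1.5 times at 1 hour (1), 3 days (9), 1 week (6), 2 weeks (0), 4 weeks (2) and 3 months (2), control replicate 3 at 1 hour (1), control replicate 4 at 1 hour (4) and 2 weeks (2), and control replicate 5 at 2 weeks (2). So did any 1-hour array at 1 hour (1), 3-day replicates 1, 3 or 4 (8), 1-week replicate 2 (6), either 2-week array (0), 4-week replicate 1 (2) and any 3-month array (3). Between times, 1-hour replicates 1 or 3 (5 calls to 6 hours), 12-hour replicates 1 or 3 (6 calls to 24 hours) and 3-month replicate 1 (13 calls against 24 hours) did so.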
